A study of Mus musculus with 12 samples.

Results

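Broad open regions that every sorted population had in common are described here. Intestinal epithelial cells of C57Bl/6 mice with a Sox9EGFP reporter were sorted into the populations Sox9 Negative, Sox9 Sublow, Sox9 Low and Sox9 High, with 3 Omni-ATAC-seq libraries each. All 4 groups share the strain and the reporter, and no other allele or treatment is labelled. The age of the mice, and whether the 3 libraries of a group came from separate mice, are not given in the sources used here. Each population was available as 1 consensus peak list on mm9, with positions and no heights, so the values have no replicate error and populations could not be tested against each other.

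Peaks of the lists that overlapped by 1 bp or touched were merged, which gave 82365 regions, and 27294 of these held a peak of every list. The 6968 broad regions were chosen by 2 measured values, presence in all 4 lists and a span of at least 1000 bp from the first to the last base. They made up 25.5% of the regions of all 4 lists and 8.46% of all regions. Presence and span are therefore description, with no test. Intervals given below are exact 95% intervals, binomial for shares and from order statistics for medians. They cover counting only, and they treat regions as independent.

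In ATAC-seq the Tn5 transposase inserts adapters where DNA is free of nucleosomes, the protein spools that wrap most of the genome. A short peak can be a single linker held free by bound transcription factors. A long peak can span several neighbouring nucleosomes that are missing or loosely placed. Active promoters, above all those rich in CpG, and clusters of enhancers are known for long accessible stretches, and promoters of genes that all cells use tend to be accessible in every cell type of a tissue. In the crypt and villus, Sox9 marks the dividing and secretory end of the epithelium, and cells lose it as they become absorptive. Sox9 Low sorts are known to be rich in crypt base stem cells, Sox9 Sublow sorts in dividing progenitors, Sox9 High sorts in enteroendocrine and other secretory cells, and Sox9 Negative sorts in differentiated cells. No annotation of the mm9 build was used here. Genes, promoters and sequences at the regions, and marker genes of the sorted cells, were not analysed here.

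The broad regions spanned 9.08 Mb. Their median span was 1218 bp (1211 to 1226), with a middle 80% between 1034 and 1682 bp. Most lay near the lower limit, with 3829 regions (55.0%) from 1000 to 1249 bp and 1771 (25.4%) from 1250 to 1499 bp. Another 1166 (16.7%) reached 1500 bp but not 2000 bp, 199 (2.86%) lay between 2000 and 2999 bp, and 3 reached 3000 bp. The 20326 narrower regions of all 4 lists had a median span of 640 bp (636 to 643).

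**Figure D1:**
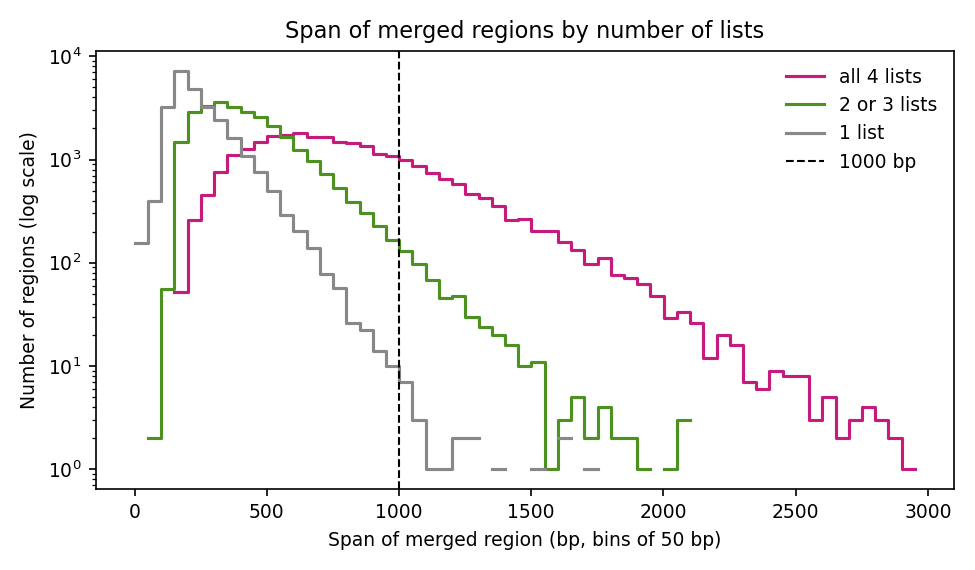
Number of merged regions (log scale) by span in bins of 50 bp, for regions held by all 4 lists, by 2 or 3 lists and by 1 list. The curve for all 4 lists passes the dashed line at 1000 bp without a step, and spans of 3000 bp and more are not drawn.

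The limit of 1000 bp cut through a continuous range of spans. There were 26 regions of all 4 lists at 1000 bp and 23 at 999 bp. Just inside it, a region on chromosome 1 (67125423 to 67126422) had 1000 bases covered in Sublow, 986 in Low, 384 in Negative and 355 in High. One on chromosome 1 (136311485 to 136312484) was covered by 947 to 998 bases in every list. Another, on chromosome 10 (60543006 to 60544005), had 836 bases in Negative and 990 in High. Just outside it, a region on chromosome 1 (158350790 to 158351788) had 713 bases in Negative, 800 in High, 981 in Low and 999 in Sublow. A region on chromosome 11 (3439060 to 3440058) had 977 bases in Negative and 566 to 678 in the other lists. Another, on chromosome 12 (106243221 to 106244219), had 996 bases in Sublow and 157 in High. Regions on either side of the limit thus included both evenly and unevenly covered ones.

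Long open regions were mostly those that every list held. Of the 7515 merged regions of at least 1000 bp, 92.7% held a peak of all 4 lists. A further 245 were missing from Negative alone, 197 were missing from High alone, 45 were held by Low and High only, and 18 by High alone. A merged region grows with the number of lists in it, so single peaks were counted as well. A peak of 1000 bp meets the span limit by itself, so its share in the broad regions reflects only presence in all 4 lists. A long peak also has more room to meet peaks of the other lists, and nothing is read from these shares. In the Negative list 3095 peaks reached 1000 bp, and 98.0% of them lay in the broad regions. The share was 96.6% of 5797 such peaks in Sublow, 96.1% of 4171 in High and 95.7% of 5225 in Low. Peaks of at least 1000 bp outside the broad regions numbered 63 in Negative, 161 in High, 198 in Sublow and 224 in Low.

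The broad regions held a larger part of each list's bases than of its peaks, which choosing long regions brings about. Median peak widths over whole lists ran from 383 bp (High) to 464 bp (Sublow), and the rule asked for a span of 1000 bp. In Negative they held 17.1% of the peaks and 32.0% of the bases. The shares were 13.8% and 29.5% in Sublow, 13.9% and 28.7% in High, and 13.0% and 27.2% in Low. In bases this came to 8.45 Mb in Sublow, 8.20 Mb in Low, 7.44 Mb in High and 6.91 Mb in Negative.

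Within a broad region the 4 lists did not cover the same stretch. The median number of bases covered was 1150 in Sublow (1143 to 1156), 1123 in Low (1116 to 1129), 1048 in High (1043 to 1055) and 981 in Negative (975 to 988). As a share of the span, the median was 96.4% in Sublow, 94.96% in Low, 89.1% in High and 81.3% in Negative. In the narrower regions of all 4 lists the shares stood in the same order, at 94.3%, 93.0%, 82.2% and 76.2%. A single peak of 1000 bp or more was present in 80.3% of the broad regions in Sublow, 71.7% in Low, 57.5% in High and 43.5% in Negative. The Negative list therefore reached the limit with a single peak in the smallest part of the regions, and elsewhere the span rested on the other lists or on several peaks.

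**Figure D2:**
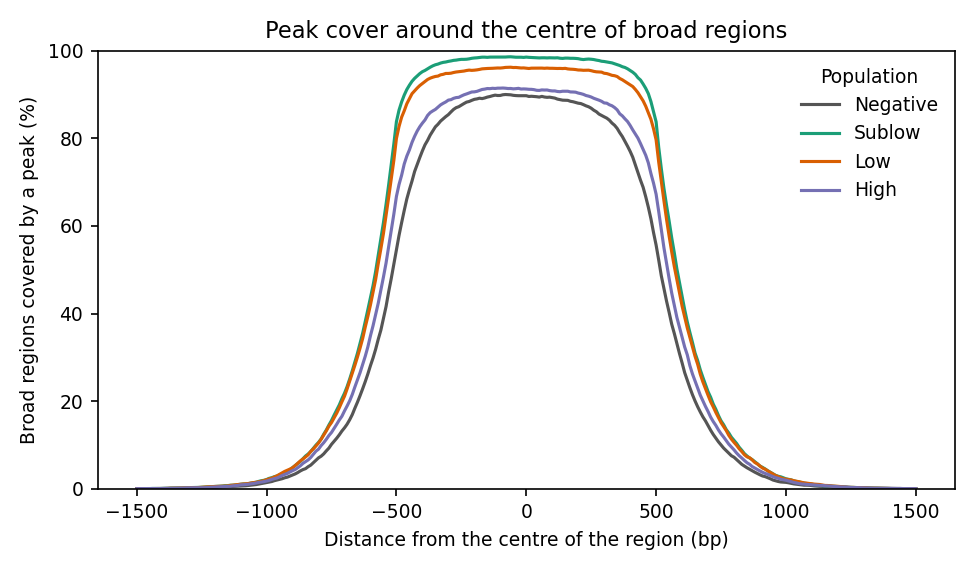
Percent of the 6968 broad regions that a peak of each population covered (y) at each distance in bp from the centre of the region (x). At the centre the share ran from 89.7% in Negative to 98.6% in Sublow, and the curves of Negative and High fall off closer to the centre than those of Low and Sublow.

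The differences between the lists lay at the edges more than at the centre. Each broad region holds a peak of every list, and its centre and edges are set by the outermost peaks. Higher and more even cover at the centre is therefore largely fixed by the rule. At the centre of the region, 98.6% of the broad regions were covered in Sublow, 96.0% in Low, 91.3% in High and 89.7% in Negative. At 500 bp to the right of the centre these shares were 83.8%, 79.7%, 67.3% and 55.6%, and to the left they were 83.8%, 80.0%, 66.7% and 54.6%. The 2 sides were alike in each list. From the left edge of the region the first peak began a median of 10 bp inside in Sublow, 13 bp in Low, 40 bp in High and 82 bp in Negative. At the right edge the medians were 10, 13, 39 and 79 bp. Sublow set the left edge of 38.2% of the regions, Low of 36.6%, High of 24.7% and Negative of 10.3%, with ties counted for each list. Both edges were set by the same list in 13.6% of the regions for Sublow, 13.1% for Low, 5.90% for High and 1.31% for Negative.

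A core stretch that all 4 lists covered was found in nearly every broad region. It had a median of 891 bases and took up a median of 73.5% of the span (72.8 to 74.1%), against 61.8% (61.4 to 62.1%) in the narrower regions. By span class the share was 59.7% from 500 bp, 70.0% from 750 bp, 73.8% from 1000 bp and 69.5% from 2000 bp, so it changed with span below the limit too. Span was used by the rule, and nothing is read from the contrast. In 6206 regions it was 1 unbroken run, and in 724 it fell into several runs. In 2337 regions (33.5%) the common stretch itself reached 1000 bases. In 801 regions it took up at least 90% of the span, and in 418 regions (6.00%) it took up less than 25%. Only 38 regions (0.545%) had no base in common and were held together by peaks that overlap in a chain. Over the whole 9.08 Mb, 67.4% of the bases were covered by all 4 lists, 14.8% by 3, 9.67% by 2 and 8.15% by 1.

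The regions with the most even cover had nearly identical edges in every population. A region on chromosome 3 (58218332 to 58221213) covered 2882 bases in Sublow, Low and High and 2876 in Negative, so 99.8% of it was common. One on chromosome 2 (98506407 to 98507467) covered 1061 bases in Negative and Sublow, 1059 in Low and 1058 in High. On chromosome 10 (107768741 to 107770472) the values ran from 1713 in Negative to 1729 in Sublow. On chromosome 13, a region from 46822497 to 46823555 covered 1044 to 1059 bases, and one from 108680026 to 108681838 covered 1787 to 1813. In these 5 regions at least 98.5% of the span was shared by all populations. The repeat content and mappability of these regions were not analysed here.

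At the other end, long regions were chains of peaks in which no base was common. On chromosome 4 (11330912 to 11332679) the 1768 bp were covered by 1342 bases in 3 Low peaks, 1288 in Sublow, 813 in High and 238 in Negative. On chromosome 2 (26089292 to 26090988) Low covered 1562 bases, High 1055, Sublow 956 and Negative 143. On chromosome 13 (38253306 to 38254954) Sublow covered 1641 bases, Low 1144, Negative 411 and High 228. A region on chromosome 8 (47992454 to 47994049) had 1548 bases in Sublow and 213 in Negative, and one on chromosome 4 (133044556 to 133046050) had 1414 bases in Sublow and 465 in Negative. In each of these 5 regions Negative or High had the fewest bases. On the deposited widths, Negative had the fewest in 63.7% of all broad regions and High in 27.6%. The 5 are part of the 38 broad regions with no base in common.

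The 10 widest regions were of both kinds. The widest stood apart from the rest, with 5622 bp on chromosome 17 (39980065 to 39985686), of which High covered 5600 bases in 1 peak and Low, Sublow and Negative covered 5221, 5210 and 4949 in 2 peaks each. Its repeat content and mappability were not analysed here either. The second was on chromosome 1 (74995347 to 74998708) with 3362 bp. There Low covered 3000 bases in 1 peak, Sublow 2744 and Negative 1702 in 2 peaks each, and High 1931 in 3 peaks. The third, on chromosome 11 (102177929 to 102181054), was 1 peak in each list, of 3079 to 3126 bp.

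Among the next 7, 3 were covered nearly alike by all lists. These were the region on chromosome 3 given above, one on chromosome 5 (43623783 to 43626597) with 2743 to 2815 bases, and one on chromosome 15 (85499549 to 85502445) with 2508 bases in High and 2790 to 2843 in the others. On chromosome 8 (123059839 to 123062824) Negative covered 2148 bases and the other lists 2834 to 2972. On chromosome 5 (125862962 to 125865890) Negative covered the most, with 2662 bases in 1 peak, and the other lists had 2 peaks each with 2010 to 2435 bases. On chromosome 11 (116393072 to 116395921) cover fell along the reporter range, from 2741 bases in Negative to 2694 in Sublow, 2046 in Low and 1295 in High. On chromosome 13 (37917000 to 37919800) Negative covered 1681 bases in 4 peaks, and Sublow, Low and High covered 2465, 2056 and 2455. The widest regions thus included both even and uneven cover.

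Most broad regions were a single stretch in every list. There were 5615 regions (80.6%) with 1 peak per list. The list most often broken into several peaks was Negative, with 801 regions (11.5%, 10.8 to 12.3%). Low had 592 (8.50%, 7.85 to 9.18%), High 540 (7.75%, 7.13 to 8.40%) and Sublow 195 (2.80%, 2.42 to 3.21%). Over all regions that a list held, the share with several peaks was 2.32% for Negative, 1.49% for Low, 1.38% for High and 0.692% for Sublow. A wider region has more room for a second peak and the span was used by the rule, so nothing is read from the distance to these shares.

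**Figure D3:**
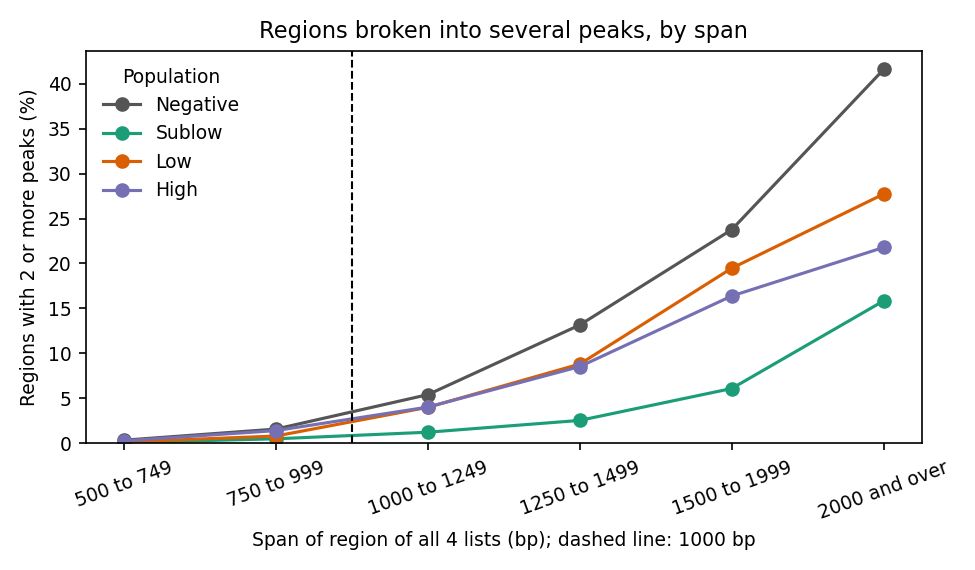
Percent of regions of all 4 lists with 2 or more peaks of a population (y), by span class in bp (x); the dashed line marks 1000 bp. The share rises with span in each list, from 5.41% to 41.6% in Negative and from 1.23% to 15.8% in Sublow between the first and the last class of broad regions.

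Breaks became more frequent with span in every list. From the class of 1000 to 1249 bp to that of 2000 bp and over (202 regions), the share of broken regions went from 5.41% to 41.6% in Negative and from 4.00% to 27.7% in Low. It went from 4.02% to 21.8% in High and from 1.23% to 15.8% in Sublow. In the widest class 44.1% of the regions still had 1 peak per list. The share of the span that a list covered moved little over these classes. Its median lay between 77.9 and 81.8% in Negative and between 89.0 and 89.8% in High. For Low it lay between 94.5 and 95.6%, and for Sublow between 95.5 and 96.6%.

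The gaps inside broken regions were short, and Sublow peaks spanned most of them. The 827 gaps in Negative had a median of 292 bp, the 568 in High 292.5 bp, the 603 in Low 246 bp and the 199 in Sublow 233 bp. A Sublow peak covered the whole gap in 88.9% of the Negative gaps, 87.9% of the High gaps and 84.4% of the Low gaps. A High peak covered 39.9% of the Negative gaps, and a Negative peak 31.0% of the High gaps. All 3 other lists covered the gap in 27.4% of the Negative gaps, 20.8% of the High gaps, 7.79% of the Low gaps and 1.51% of the Sublow gaps. A gap must be covered by at least 1 peak of another list or by a chain of them, since the region would otherwise have been 2 regions.

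The part of each list in joining the regions was measured by leaving it out of the merge. Without Sublow, 6211 of the 6968 regions (89.1%) still held a stretch of at least 1000 bp with peaks of the other 3 lists. Without High this was 6503 (93.3%), without Low 6527 (93.7%) and without Negative 6779 (97.3%). The number of regions that came apart into several pieces was 365 without Sublow, 87 without Low, 84 without High and 43 without Negative.

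The populations were next compared by the ratio of bases covered in the same region. The sorts are ordered Negative, Sublow, Low, High by reporter level, so 3 of the 6 pairs are neighbours. On the deposited widths, Sublow covered more bases than Negative in 91.2% of the broad regions, against 78.3% of all regions held by both lists. The median log2 ratio was 0.22 (0.21 to 0.22), a direction that turns with the scaling given below. Sublow reached 1.5 times the Negative bases in 1294 regions (18.6%), against 22.4% of all regions held by both lists. Negative reached 1.5 times the Sublow bases in 32 regions (0.459%), against 4.04%. Both shares past the fold were below those of all shared regions, and span was used by the rule.

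Sublow and Low were nearly equal in the broad regions. The median log2 ratio of Low to Sublow was -0.013 (-0.016 to -0.011), and 96.6% of the regions lay within 1.5-fold. Sublow reached 1.5 times the Low bases in 187 regions (2.68%, against 5.76% of all regions held by both). Low reached 1.5 times the Sublow bases in 50 regions (0.718%, against 7.60%).

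High covered fewer bases than Low on the deposited widths, a direction that turns with the scaling given below. The median log2 ratio of High to Low was -0.074 (-0.080 to -0.069). Low covered more in 68.6% of the broad regions, against 63.3% of all regions held by both. Low reached 1.5 times the High bases in 844 regions (12.1%, against 19.1% of all regions held by both). High reached 1.5 times the Low bases in 95 regions (1.36%, against 8.51%). With widths divided by the median of each list this was 210, and 624 for Low over High. No share over all regions held by both was computed for divided widths, so nothing is read from these 2 counts. Between the ends of the reporter range, High covered more than Negative in 68.2% of the regions, against 61.6% of all regions held by both. The median log2 ratio was 0.095 (0.090 to 0.101). High was past the fold in 850 regions (12.2%, against 16.6%) and Negative in 539 (7.74%, against 12.7%).

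The other pairs had median log2 ratios of 0.18 (Low over Negative) and -0.095 (High over Sublow). In the narrower regions the medians were 0.26 for Sublow over Negative, 0.24 for Low over Negative, -0.16 for High over Sublow and -0.14 for High over Low. The intervals of these 4 medians did not meet those of the broad regions, and in each case the broad regions lay nearer to 0. For High over Negative the medians in broad and narrower regions were 0.095 and 0.088, and for Low over Sublow -0.013 and -0.015. The intervals of both these pairs overlapped. A difference of a given number of bases is a smaller ratio in a wider region, and the width was used by the rule. The direction of 4 of these ratios also depends on scale. When widths were divided by the median peak width of each list (Sublow 464 bp, Low 433 bp, Negative 394 bp and High 383 bp), the median became -0.020 for Sublow over Negative, 0.086 for Low over Sublow, 0.18 for High over Sublow and 0.10 for High over Low.

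**Figure D4:**
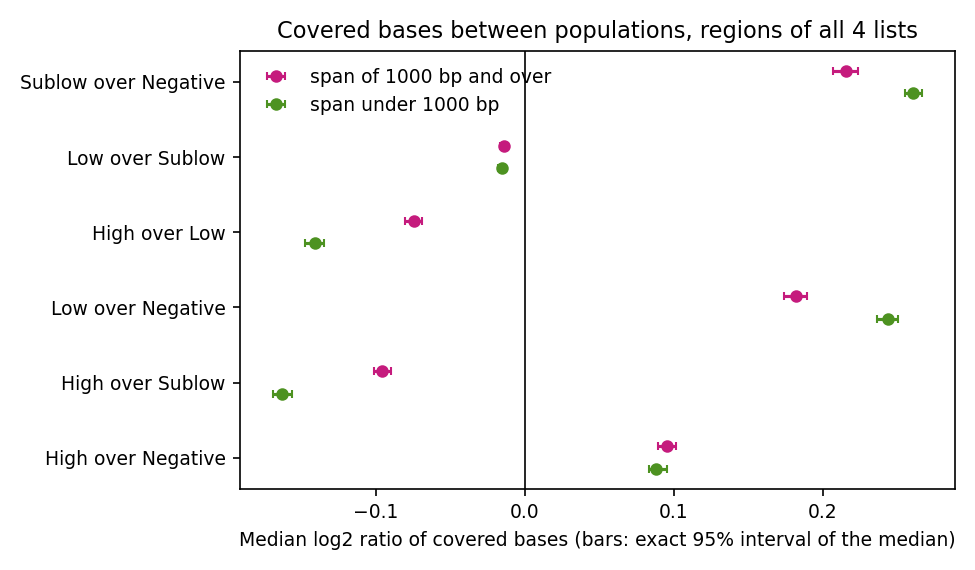
Median log2 ratio of the bases covered by 2 populations (x) for the 6 pairs (y), in regions of all 4 lists of 1000 bp and over and under 1000 bp, with exact 95% intervals of the median. In 4 pairs the broad regions lie nearer to 0 with intervals that do not meet, such as 0.22 against 0.26 for Sublow over Negative. Dividing by each list's median width turns 4 directions, as given in the text.

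Over the 4 lists together, the list with the most bases had a median of 1.29 times those of the list with the fewest (1.28 to 1.30), against 1.52 times (1.51 to 1.53) in the narrower regions. In 1039 broad regions (14.9%, against 5.98% of the narrower) the 4 lists lay within 1.1-fold, and in 1160 (16.6%, against 27.5%) they differed at least 2-fold. The span that separates these classes enters each ratio, so nothing is read from the contrast. On the deposited widths, Negative had the fewest bases in 63.7% of the broad regions, High in 27.6%, Low in 6.49% and Sublow in 1.62%. Sublow had the most in 42.1%, Low in 32.0%, High in 18.6% and Negative in 6.07%. In the narrower regions Negative had the fewest in 53.3% and High in 34.4%, and Sublow had the most in 38.0%. With widths divided by the median of each list, a ranking added after seeing the data, the fewest were in Sublow in 37.2% of the broad regions and in Negative in 35.8%, and the most were in High in 56.0%. Of the 6783 regions without ties, 1151 had the order Negative, High, Sublow, Low from fewest to most bases, and 1141 had Negative, High, Low, Sublow. The reporter order Negative, Sublow, Low, High was found in 598 (8.82%), and its reverse in 231 (3.41%). With the divided widths the commonest order was Sublow, Low, Negative, High, at 17.5%, and the reporter order was found in 16.5%. The ranking of the lists thus depends on the scale.

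In the regions with 1 peak per list, the peaks were partly nested. The Negative peak lay wholly inside the Sublow peak in 76.0% of the 5615 regions (74.9 to 77.1%), inside the Low peak in 68.2% and inside the High peak in 50.2%. The High peak lay inside the Sublow peak in 45.9% and inside the Low peak in 43.8%. The Low peak lay inside the Sublow peak in 30.5%, and the Sublow peak inside the Low peak in 26.4%. The Sublow peak lay inside the Negative peak in 2.65%. Nesting was taken on the deposited widths, and a list with wider peaks more readily contains those of another. No such shares were computed for the narrower regions or for divided widths, so nothing is read from this order.

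Some broad regions were shared by all populations and still skewed to one of them. Measured on the deposited widths against the median of the other 3 lists, Sublow covered at least 1.5 times as many bases in 537 regions (7.71%, against 9.39% of all regions of 4 lists). Low did so in 378 (5.42%, against 8.72%), High in 112 (1.61%, against 3.32%) and Negative in 95 (1.36%, against 2.3%). In the other direction, Negative fell short by that factor in 1147 regions (16.5%, against 21.4%) and High in 832 (11.9%, against 18.1%). Low fell short in 96 (1.38%, against 2.35%) and Sublow in 25 (0.359%, against 1.29%). All 8 shares were below those over all regions of 4 lists, and the span used by the rule enters both.

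The most skewed region of each population, among those with 1 peak per list, was picked by its ratio to the median of the other 3 lists. Short peaks in at least 2 other lists follow from that choice. For Negative this was on chromosome 1 (82750836 to 82752239), with 1404 bases in Negative against 499 in Sublow, 186 in High and 144 in Low, a ratio of 7.55 to the median of the others. For Sublow it was on chromosome 2 (22609167 to 22610338), with 1169 bases in Sublow and 1048 in Low against 147 in Negative and 133 in High. For Low it was on chromosome 18 (66234734 to 66235822), with 1089 bases in Low and 874 in Sublow against 142 in Negative and 140 in High. The Sublow and Low examples were both long in the middle populations and short at both ends, but they are 2 regions picked as extremes. For High it was on chromosome 19 (5841239 to 5842468), with 1230 bases in High, 555 in Negative, 240 in Low and 226 in Sublow, a ratio of 5.13.

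Position along the genome was not used by the rule. Broad regions made up a similar part of the regions of all 4 lists on each chromosome. Leaving out the Y chromosome, the share was lowest on chromosome 14, at 211 of 958 (22.0%, 19.4 to 24.8%), and highest on chromosome 4, at 508 of 1859 (27.3%, 25.3 to 29.4%). Chromosome 11 held the most broad regions, 576, or 26.9% of its regions of all 4 lists. The X chromosome had 123 of 494 (24.9%, 21.1 to 29.0%), against 25.5% (25.03 to 26.08%) on the autosomes. None of the 9 regions of all 4 lists on the Y chromosome was broad, with an exact interval from 0 to 33.6%. The interval held the value of the whole genome on 19 of 20 chromosomes other than Y, the exception being chromosome 14, and these intervals are not adjusted for their number.

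**Figure D5:**
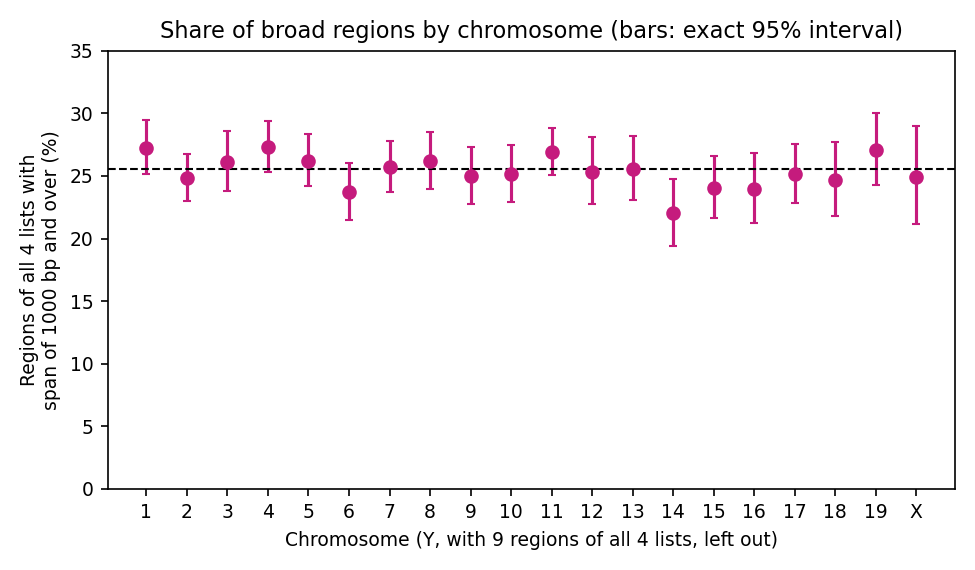
Percent of the regions of all 4 lists that span 1000 bp or more (y) on each chromosome (x), with exact 95% intervals; the dashed line is the whole genome, 25.5%. Values run from 22.0% on chromosome 14 to 27.3% on chromosome 4.

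Spacing is given beside that of the more numerous classes. The median gap from one to the next was 101846 bp (97685 to 106531), and 388 of 6948 gaps (5.58%) were of 10 kb or less. Among the narrower regions of all 4 lists, 24.9% of gaps were that short, and among all merged regions 55.7%. In the order of all merged regions, 5819 broad ones (83.5%) had none as a direct neighbour. Broad regions were 8.46% of all regions, and nothing is read from this share. There were 507 pairs, 33 runs of 3 and 9 runs of 4 neighbouring broad regions with no other region between them. The shortest run of 4 covered 29.7 kb on chromosome 11 (58114896 to 58144643), with spans of 1568, 1137, 1020 and 1170 bp. The longest covered 222.8 kb on chromosome 2 (121632152 to 121854958), with spans of 1075, 1094, 1370 and 1244 bp.

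On a fixed grid of 100 kb, 5046 windows held a broad region, and 3608 of them held just 1. The most were 7, on chromosome 7 from 26000001 to 26100000, where 11 of 12 merged regions were held by all 4 lists and the broad ones had a median span of 1551 bp. Another 6 windows held 6 each. Their starts were 69700001 and 120400001 on chromosome 11, 21800001 on chromosome 13, 75700001 on chromosome 15, 141100001 on chromosome 4 and 83000001 on chromosome 6. In these 7 windows at most 1 region each was held by High alone, and between 0 and 3 by Negative alone. Regions of 1 list were 31.9% of all merged regions. The windows were picked for holding the most broad regions, so nothing is read from these counts.

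Regions of all 4 lists were a little more often broad where they were few. The share was 28.7% (27.3 to 30.3%) in windows with 1 such region, 27.4% (26.1 to 28.7%) with 2, 26.2% (25.3 to 27.2%) with 3 to 4, 23.3% (22.3 to 24.2%) with 5 to 7 and 23.1% (21.7 to 24.6%) with 8 or more. The intervals of the lowest and the highest class did not meet. Merging close peaks widens a region and also lowers the count in its window, and span was used by the rule. Nothing is therefore read from this fall. Other regions were found less often around broad regions than around narrower ones, but more often than around regions of 1 list. Within 1001 to 10000 bp of their edges, 71.6% of the broad regions had another merged region (70.6 to 72.7%). The share was 77.5% for the narrower ones (76.9 to 78.0%) and 67.7% for regions of 1 list (67.1 to 68.2%).

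Fewer neighbours of most kinds were found near broad regions than near the narrower ones. A narrower region of all 4 lists lay within that distance of 32.8% of the broad regions (31.7 to 33.9%) and of 38.8% of the narrower ones (38.2 to 39.5%). A region missing from High alone lay near 14.0% (13.2 to 14.8%) against 16.4% (15.9 to 16.9%), and a region of High alone near 14.7% (13.9 to 15.5%) against 16.7% (16.2 to 17.3%). For regions of Negative alone the shares were 12.7% (11.9 to 13.5%) and 13.5% (13.0 to 13.9%), with intervals that overlap. Against regions of 1 list the direction differed by kind. Their shares were 27.5% for narrower regions of all 4 lists, 12.2% for regions missing from High alone and 9.49% for Negative alone, all lower. For regions of High alone it was 18.8%, which is higher. A wider region takes in peaks that would otherwise be its neighbours, and distances beyond 1000 bp reduce this but do not remove it.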

How the data were processed

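Open chromatin was measured by Omni-ATAC-seq in 12 libraries, 3 for each of 4 sorted populations. The label of each library gives 12000 cells collected. Per the submitters' processing notes, the tools were MACS2 2.1.2, deepTools 2.5.2, Picard 2.10.3, Bowtie2 2.3.4 and Trim Galore 0.4.3, with mm9. Not given in the sources used here are their settings, the handling of the Tn5 offset and the rule that combined libraries. Each deposited file is 1 peak list per population with a chromosome, start, end and name, and holds no counts or signal. Depth is therefore unknown, and its part in peak width was not tested.

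Positions were read as counted from 1 with the end included, since some peaks start and end at the same base. Peaks were merged at 1 bp overlap or contact. The merging was tested on simulated data. Chains of peaks with no common base, and gaps as long as those in the data, were not simulated. Ratios use bases covered per region. Broad regions and the fold of 1.5 were chosen with earlier results of these data known. The rule for naming took the 10 widest regions, 3 on each side of the limit, and the 5 with the largest common share. It also took 5 of those with no common base, the most skewed per population, and the fullest windows and runs. The reference tables at hand are of GRCm38 and were not used. Tools were Python 3.11.15, matplotlib 3.10.9, scipy 1.17.1, pandas 2.3.3 and numpy 2.4.6.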

Additional observations from a re-analysis of the deposited data

How the results depend on the processing

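No paired analysis was possible because the deposited lists pool the 3 libraries of a population, and leaving out a replicate was not possible either. Alternatives on annotation, sequence and gene lists need the mm9 build and were not run.

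The number of broad regions was 8357 with peaks up to 500 bp apart merged, 5389 with a reciprocal overlap of 50%, 6815 with peaks of at least 200 bp and 6845 on autosomes. With 1 list left out, which was added after seeing the data, it lay between 6213 (no Sublow) and 7025 (no Negative). It was 2337 when the common bases had to reach 1000, 2349 when each list needed a peak of 1000 bp, 1368 at a span of 1500 bp and 13445 at 750 bp, limits that are stricter or wider by construction.

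The median common share was 85.5% with a peak of 1000 bp in each list, 71.5% at 1500 bp and 78.0% in regions with 1 peak per list. Regions with several peaks were 3.58% (Negative), 0.639% (Sublow), 2.72% (Low) and 1.87% (High) in the first of these settings, and 26.4%, 7.53%, 20.7% and 17.2% at 1500 bp. Negative was the list most often broken, and Sublow the least, in both.

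In regions with 1 peak per list, median log2 ratios were 0.18 (Sublow over Negative), 0.16 (Low over Negative), -0.0069 (Low over Sublow), -0.072 (High over Sublow) and -0.058 (High over Low), all in the same direction. Divided by the median width of each list, they were -0.020 (Sublow over Negative), 0.046 (Low over Negative), 0.14 (High over Negative), 0.086 (Low over Sublow), 0.18 (High over Sublow) and 0.10 (High over Low). Of these, 4 reversed. The median width of a list also counts its peaks outside the broad regions. In that setting Sublow passed 1.5 times Negative in 776 regions and Low passed High in 624, against 1294 and 844 before. High passed Low in 210 and Sublow in 256, Negative passed Sublow in 63, Low passed Sublow in 76, and Sublow passed Low in 116 and High in 639. On undivided widths at 2-fold, Sublow passed Negative in 570 regions and Low passed High in 410, with 9 for Negative over Sublow and 32 for High over Low. No shares over all regions held by both lists were computed for divided widths or at 2-fold, so nothing is read from these counts. The ranking of the lists also changed with divided widths, an alternative added after seeing the data: Sublow had the fewest bases in 37.2% of the regions and High the most in 56.0%.

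The median gap between broad regions was 81460 bp with peaks merged up to 500 bp apart, 363133 bp with a peak of 1000 bp in each list and 731463 bp at 1500 bp. Gaps of 10 kb or less were 7.28%, 1.20% and 0.890%, against 5.58%. Regions in a window with another broad one were 55.2%, 17.9% and 12.5%, against 48.2%. Fewer regions lie farther apart by construction. Over the 15 settings, 16 values stayed within 1.5-fold or inside their interval, 72 moved past these limits and 4 reversed.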
